A study of Mus musculus with 18 samples.

Results

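The 10 genes described here encode enzymes that turn arachidonic acid into prostaglandins, thromboxane and leukotrienes, and were followed by RNA-seq in mouse monocytes and in the monocyte-derived cells (MDCs) that grew from them in GM-CSF. The members were listed by gene symbol, with earlier results of these data known, and all 10 were found among the 20298 genes of the expression table: *Ptgs1*, *Ptgs2*, *Ptges*, *Hpgds*, *Tbxas1*, *Alox5*, *Alox5ap*, *Alox15*, *Lta4h* and *Ltc4s*. The 18 libraries formed 6 groups of 3. WT and DKI C57BL/6 mice were compared, where DKI stands for the *Stat5a*-*Stat5b* double knockin, in which N-domain mutations in both STAT5 proteins block the formation of tetramers but leave dimers. Ly6C+ CCR2+ monocytes were left untreated (day 0) or were cultured with GM-CSF at 20 ng/mL for 3 or 6 days. The 3 libraries of a group came from independent experiments, so the p-values measure the spread between those experiments.

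Liver is given as the tissue in the labels, but bone marrow in the series description. The hepatocyte genes *Alb* and *Ttr* were listed at 0 in all 18 libraries. Monocytes were enriched by negative selection rather than sorted, and markers of other cells were present: on day 0 the summed RPKM (reads scaled to gene length and to the mapped reads of the library) of 10 neutrophil and granulocyte precursor genes was between 1448 and 1917, against between 3284 and 4635 for 7 classical monocyte genes. In these bulk samples, fewer cells of a type and less RNA per cell cannot be told apart. The library names carry a year, the earlier of 2 in replicate 1 of days 3 and 6 and the later in the other 14 libraries. DKI replicate 1 of day 3 stood apart, with *Ly6c2*, a monocyte surface marker, at 775 RPKM against 49.5 and 73.8 in the other DKI libraries of that day. So did DKI replicate 1 of day 6, with *Ly6c2* at 158 RPKM against 10.5 and 5.30. Without these libraries the log2 difference between DKI and WT in *Hpgds* on day 3 was 2.86 (limma, adjusted p = 0.0263) and that in *Alox15* on day 6 was -1.72 (adjusted p = 0.0466).

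Arachidonic acid is freed from membrane phospholipids by phospholipases A2 and then enters one of several branches. In the cyclooxygenase branch, the enzymes encoded by *Ptgs1* (COX-1, usually constitutive) and *Ptgs2* (COX-2, usually inducible) make prostaglandin H2, which terminal synthases turn into prostaglandin E2 (*Ptges*), prostaglandin D2 (*Hpgds*) or thromboxane A2 (*Tbxas1*). In the 5-lipoxygenase branch, *Alox5*, with its helper protein FLAP (*Alox5ap*), makes leukotriene A4, from which *Lta4h* makes leukotriene B4, an attractant of neutrophils, and *Ltc4s* makes the cysteinyl leukotriene C4. *Alox15* encodes a 12/15-lipoxygenase that is typical of eosinophils and of some macrophages. Monocytes, macrophages, dendritic cells, mast cells and platelets differ in which of these enzymes they carry.

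Of the 10 mRNAs, 5 changed between day 0 and day 3 of GM-CSF in both genotypes. No cells were cultured without GM-CSF. Its effect, time in culture and a change in the mix of cells thus cannot be told apart. The summed RPKM of 8 eosinophil genes was between 216 and 597 in WT and between 150 and 431 in DKI cells on day 0. On day 3 it was between 5.52 and 35.9 and between 16.1 and 35.7. That of 6 dendritic cell genes rose in both genotypes, in WT from between 11.3 and 22.2 to between 1069 and 1150. Between day 0 and day 3 in WT cells, *Ptgs1*, *Tbxas1*, *Alox5*, *Alox15* and *Ltc4s* rose and *Ptgs2* fell, so that 6 of the 9 members tested were called, against 43.1% of all 9938 genes tested. In DKI cells, *Ptgs1*, *Tbxas1*, *Hpgds*, *Alox5* and *Ltc4s* rose and *Ptgs2* fell, again 6 of 9, against 34.2% of 9922 genes. A gene was called when its limma p, adjusted over all genes by Benjamini-Hochberg, was under 0.05 and its fold was above 1.5 on the log2(RPKM + 1) scale, among genes with a mean above 2 RPKM in at least 1 group. The median log2 fold change of the members tested was 1.44 in WT and 2.40 in DKI cells, while that of all genes tested was -0.05 and -0.16. No member was called between days 3 and 6 in either genotype, where 0% of 9613 genes in WT and 0% of 9540 in DKI cells were called, although 722 and 93 genes had an unadjusted p under 0.05. The interaction of genotype with the step from day 3 to day 6 called no member either, nor any gene (0% of 9985, 89 with an unadjusted p under 0.05).

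Between the genotypes, no member was called on day 0, when 8 were tested and 0% of 9179 genes were called (44 had an unadjusted p under 0.05). On day 3, 1 of 9 members tested was called, *Hpgds*, which was higher in DKI MDCs, against 7.42% of 9740 genes. On day 6, 1 of 8 was called, *Alox15*, which was lower in DKI MDCs, against 7.54% of 9842 genes. With 1 of 9 and 1 of 8 called, the members stood near the background of all genes. The 723 and 742 genes behind these shares became between 197 and 715 on day 3 and between 90 and 984 on day 6 when 1 library was left out. The members' median log2 difference between DKI and WT was -0.27 on day 3 and -0.26 on day 6, beside -0.11 and -0.17 for all genes tested.

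**Figure D1:**
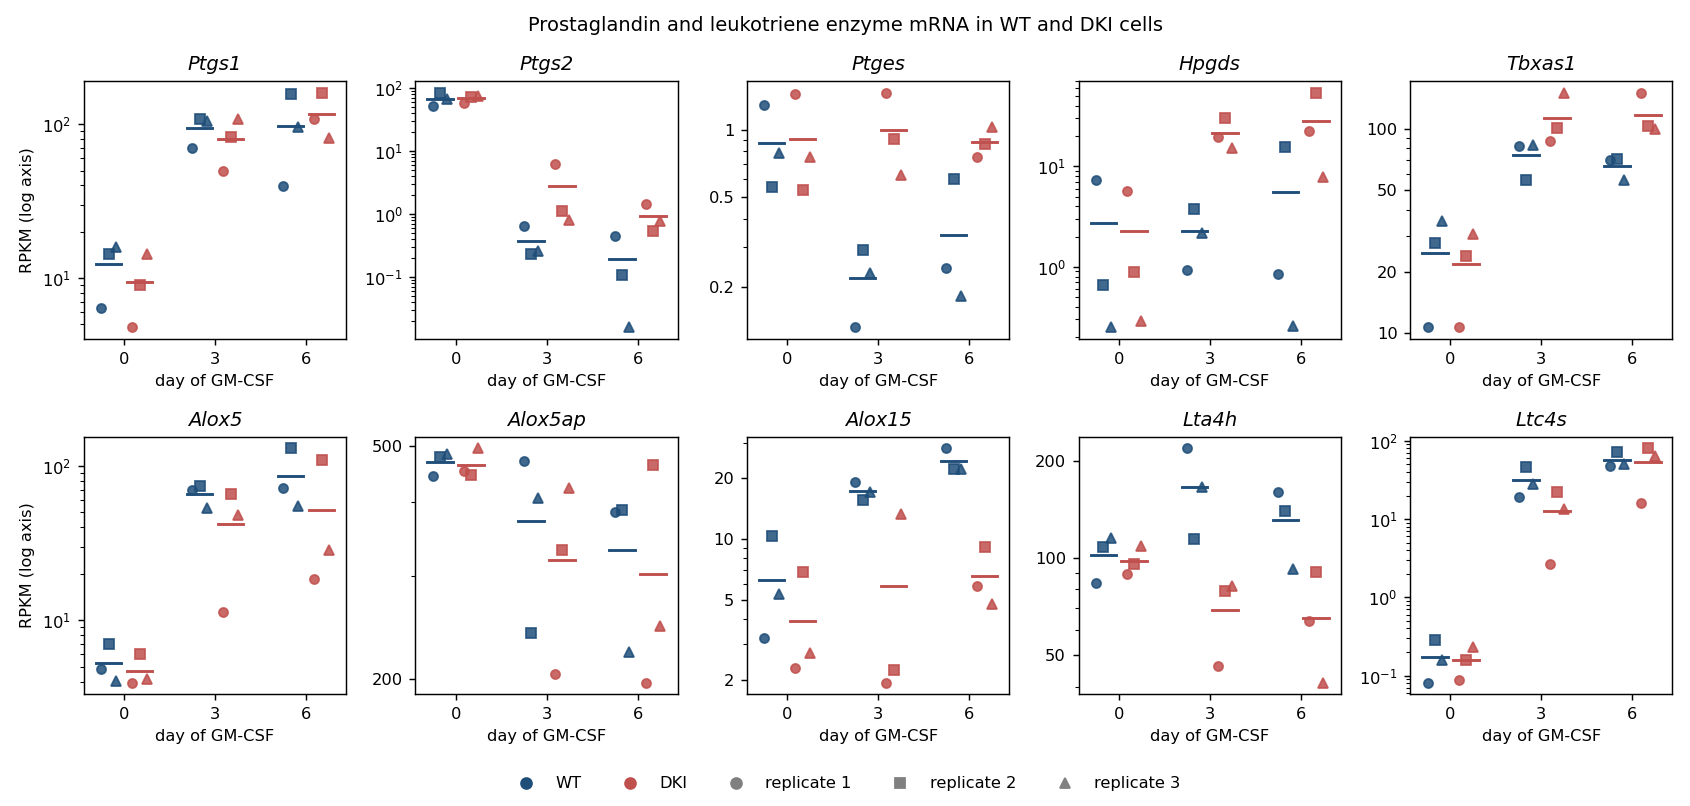
RPKM (log axis) of the 10 enzymes in each of the 18 libraries by day of GM-CSF, with WT in blue, DKI in red, 1 marker shape per replicate number and a bar at the mean of 3 libraries. *Ptgs2* lay between 52.2 and 84.2 RPKM on day 0 and at or below 6.26 RPKM in every GM-CSF library, while *Ltc4s* moved from below 0.3 RPKM to between 2.68 and 80.2 RPKM.

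The promoters of 3 of the 5 members that changed by day 3 in both genotypes are shown, *Ptgs1* and *Alox5*, which rose, and *Ptgs2*, which fell. Those of *Tbxas1* and *Ltc4s* are not printed because 6 and 84 bases of their windows lie in an exon of GENCODE M21. RefSeq windows on GRCm38.p6 (mm10) were given for 8 of the 10 members, and not for *Alox15* and *Alox5ap*. Each line gives the 250 bases before the start of 1 RefSeq transcript, 5′ to 3′ on the gene's own strand. In all 3 this is also the start of the gene in GENCODE M21, but the RefSeq span of *Ptgs1* begins 13684 bases further upstream. Capitals mark the PU.1-type element GAGGAAGT and the GC box GGGCGG, searched on both strands.
Ptgs1 (chr2:36230176-36230425, plus strand): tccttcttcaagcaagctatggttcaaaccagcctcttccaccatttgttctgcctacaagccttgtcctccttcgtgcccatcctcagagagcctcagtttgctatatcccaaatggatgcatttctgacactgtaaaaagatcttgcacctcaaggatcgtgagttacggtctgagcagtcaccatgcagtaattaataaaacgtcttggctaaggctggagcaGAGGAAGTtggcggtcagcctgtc
Ptgs2 (chr1:150099781-150100030, plus strand): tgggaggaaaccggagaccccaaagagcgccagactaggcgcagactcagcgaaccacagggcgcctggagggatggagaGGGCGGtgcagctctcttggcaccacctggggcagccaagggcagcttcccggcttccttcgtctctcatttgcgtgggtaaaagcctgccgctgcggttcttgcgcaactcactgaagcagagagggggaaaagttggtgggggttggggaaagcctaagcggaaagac
Alox5 (chr6:116461179-116461428, minus strand): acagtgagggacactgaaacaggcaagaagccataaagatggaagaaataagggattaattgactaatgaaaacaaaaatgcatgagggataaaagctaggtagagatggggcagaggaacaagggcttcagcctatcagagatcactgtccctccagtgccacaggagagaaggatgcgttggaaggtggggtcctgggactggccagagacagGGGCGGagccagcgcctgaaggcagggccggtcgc
GAGGAAGT, a form of the site that the myeloid factor PU.1 binds, was found in the *Ptgs1* and *Hpgds* windows, with its first base at -24 and -49 from the start used, and in no other of the 8. The *Hpgds* window is not printed either, since 178 of its 250 bases, the match among them, lie in such an exon. Of all 32851 promoter windows of this length, 2.44% held the element. The GC box was found once in *Alox5* and *Ptgs2* and at 2 places in *Ptges*, and in 32.7% of all windows. TTCNNNGAA, the element that STAT5 dimers bind, was in none of the 8 windows and in 7.02% of all windows. These are matches of letters in a short window, and binding was not measured here.

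The 2 cyclooxygenase genes moved in opposite directions. *Ptgs1* (chr2:36216742-36258593) was at 6.42, 14.4 and 16.0 RPKM in WT and 4.79, 9.0 and 14.4 in DKI monocytes (replicates 1 to 3). On day 3 it was at 70.4, 108 and 105.5 in WT and 50.0, 83.3 and 109 in DKI MDCs, so that every day 3 library lay above every day 0 library. It rose by 2.91 on the log2 scale in WT (SE 0.34, adjusted p = 0.000892) and by 3.02 in DKI cells (SE 0.42, adjusted p = 0.00415). On day 6 it was at 39.4, 157 and 96.2 in WT and 108, 160 and 81.1 in DKI MDCs, with no separation of the genotypes.

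*Ptgs2* (chr1:150100031-150108234) went the other way. Untreated monocytes held 52.2, 84.2 and 68.2 RPKM in WT and 58.9, 73.2 and 75.3 in DKI. By day 3 the WT libraries were at 0.642, 0.231 and 0.255 RPKM, a log2(RPKM + 1) difference of -5.64 (SE 0.22, adjusted p = 1.40e-05). The DKI libraries were at 6.26, 1.13 and 0.812, and fell by 4.52 (SE 0.51, adjusted p = 0.00226). On day 6 the levels were 0.455, 0.107 and 0.0159 in WT and 1.44, 0.531 and 0.773 in DKI MDCs. All 3 DKI libraries were thus above all 3 WT libraries on both days, but at levels where the day 3 difference of 1.15 was not called (SE 0.55, adjusted p = 0.241) and day 6 was below the limit for testing.

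Within each library the order of the 2 genes therefore turned over. *Ptgs2* was higher than *Ptgs1* in all 6 monocyte libraries, where the ratio of *Ptgs1* to *Ptgs2* RPKM was between 0.0813 and 0.234, and *Ptgs1* was higher in all 12 GM-CSF libraries. The ratio was between 7.99 and 1475 in 11 of these 12. No ratio is given for WT replicate 3 of day 6, where *Ptgs2* was below the 0.0222 RPKM that 3 reads give this gene at the lowest estimated depth. The lowest of these ratios, 7.99, was in DKI replicate 1 of day 3. Of the DKI libraries of that day, this one had the most *Ly6c2* and the least *Ccr2*. Whether these levels go together with the ratio was not tested. RPKM divides by gene length, so the levels of 2 genes in a library can be set side by side.

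**Figure D2:**
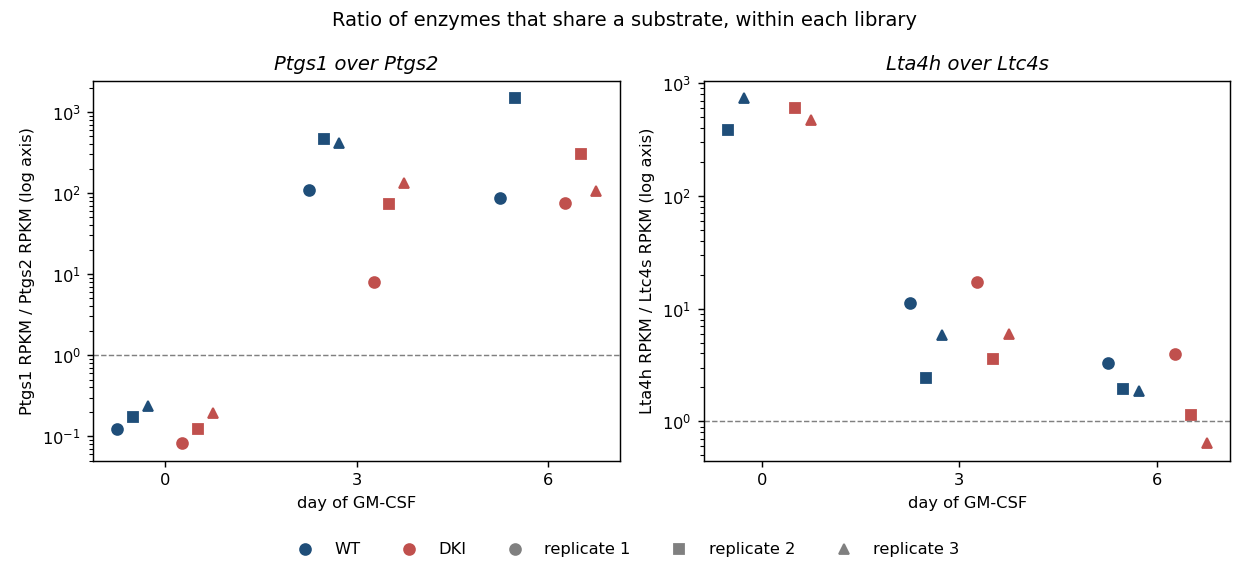
Ratio of RPKM values within each library (log axis) by day of GM-CSF, for *Ptgs1* over *Ptgs2* on the left and *Lta4h* over *Ltc4s* on the right, with the dashed line at equal levels. The cyclooxygenase ratio was below 1 in all 6 day 0 libraries and 7.99 or more in 11 GM-CSF libraries, and the ratio of the leukotriene A4 enzymes was 385 or more in 4 libraries of day 0 and 17.3 or less on days 3 and 6. A library has no point where the gene divided by was below the level of 3 reads.

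*Hpgds* (chr6:65117293-65144981), the haematopoietic prostaglandin D2 synthase, had the first of the 2 genotype calls. On day 3 the WT libraries were at 0.937, 3.75 and 2.16 RPKM and the DKI libraries at 19.7, 30.0 and 15.2, so that the lowest DKI value was above the highest WT value. The log2 difference was 2.83 (SE 0.38, adjusted p = 0.0135), a 7.09-fold difference on this scale, and DKI was higher in 3 of 3 same-numbered pairs. The difference was 3.42 in the pair of the earlier year and 2.53 on average in the 2 pairs of the later year. The call was lost without WT replicate 3 (adjusted p = 0.0533) and when all 18 libraries shared 1 variance (adjusted p = 0.0616), in a range of 0.0109 to 0.0616 over 13 alternatives, 11 of which kept it.

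On day 6 *Hpgds* was at 0.858, 15.7 and 0.260 RPKM in WT and 22.3, 53.7 and 7.78 in DKI MDCs. The groups overlapped, because WT replicate 2 was above DKI replicate 3, although DKI was again higher within each numbered pair. The difference of 2.72 was not called in the main test (SE 1.1, adjusted p = 0.166). The replicate block compares same-numbered WT and DKI libraries as pairs, although the labels do not say that they share an experiment. With it the difference was called (SE 0.39, adjusted p = 0.0372). The range was 0.0372 to 0.487 over 13 alternatives, 2 of which called it. Replicate 2 was the highest of the 3 in both genotypes and on both days.

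Day 0 gave a different picture for this gene. *Hpgds* was at 7.29, 0.659 and 0.251 RPKM in WT and 5.65, 0.899 and 0.287 in DKI monocytes. The replicate numbers thus differed widely while same-numbered libraries of the genotypes lay close together. The sum of 13 mast cell and basophil genes was also highest in replicate 1, at 137, 66.0 and 22.2 RPKM in WT and 72.2, 38.5 and 51.3 in DKI monocytes, and its part was not tested. DKI cells gained *Hpgds* by day 3, with a rise of 3.11 (SE 0.61, adjusted p = 0.0109), and WT cells did not pass the test (0.25, SE 0.72, adjusted p = 0.793). The test of that difference itself, the interaction of genotype and day, gave 2.85 and did not pass with unpaired libraries (adjusted p = 0.208). It passed with each same-numbered pair of a day as a block (SE 0.30, adjusted p = 0.00503), a setting chosen after the data were seen, in a range of 0.00503 to 0.382 over 19 alternatives. No member was called in the unpaired test, in which 2.91% of 10212 genes were, 297 genes that became between 125 and 336 with 1 library left out.

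Several marker lists moved with *Hpgds* between the genotypes. The summed RPKM of 6 macrophage genes was between 473 and 1040 in WT and between 1488 and 4058 in DKI MDCs on day 3, and all 6 were detected. Of 11 marker lists, 5 had sums that did not overlap between the genotypes on day 3. Among all single genes tested, 36.3% did not overlap on that day. The sum of 7 classical monocyte genes was between 1528 and 2547 in DKI against between 854 and 1247 in WT MDCs, and 6 of the 7 genes did not overlap, *Ccr2* being the other. *Csf1r* stands in both of these lists, and without it the macrophage sum was between 201 and 619 in WT and between 1027 and 3153 in DKI MDCs. The sum of 10 neutrophil and granulocyte precursor genes was between 828 and 1451 against between 111 and 773. Without *Mmp8*, its most abundant gene, the sums overlapped. Of the 10 genes, 4 did not overlap, which is near the share of all genes. The sum of 6 B and plasma cell genes was between 2.75 and 8.41 against between 0.992 and 1.44. The sum of 6 dendritic cell genes was lower in DKI MDCs, between 55.3 and 358 against between 1069 and 1150, and 5 of the 6 did not overlap. In 2 lists the sums overlapped with all genes and did not without the most abundant one: the stromal and endothelial sum without *Kdr* was between 2.51 and 2.92 in WT and between 4.005 and 16.8 in DKI MDCs, and the T and NK cell sum without *Cd3g* was between 0.404 and 0.673 and between 0.0462 and 0.370. Within a genotype the order of the macrophage sum differed: the WT library with the most *Hpgds* on day 6, replicate 2, had a macrophage sum of 655, below the 1810 of replicate 1. Prostaglandin D2 synthase is also typical of mast cells, and the sum of 13 mast cell and basophil genes overlapped on day 3, between 56.5 and 66.4 in WT and between 36.7 and 74.0 in DKI MDCs. The part of any of these lists in the *Hpgds* result was not tested. The 3 genes whose levels followed *Hpgds* most closely over the 18 libraries, by Pearson correlation of log2(RPKM + 1) among 10416 genes, were *Dmxl2* (0.930), *Stra6l* (0.913) and *Tnfrsf26* (0.911). All 18 points share these groups and days, and no test was made.

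**Figure D3:**
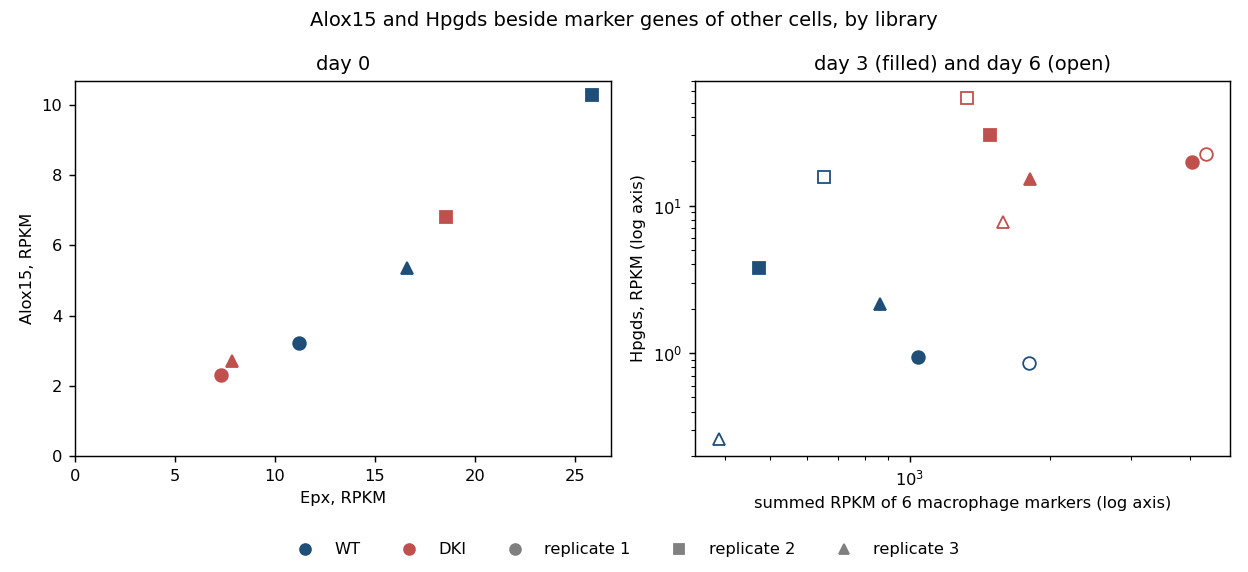
Left, *Alox15* RPKM against *Epx* RPKM in the 6 monocyte libraries of day 0; right, *Hpgds* RPKM against the summed RPKM of 6 macrophage markers in the 12 GM-CSF libraries (log axes; day 3 filled, day 6 open), with WT in blue and DKI in red. *Alox15* and *Epx* put the 6 libraries in 1 order, and in *Hpgds* 5 of 6 WT libraries lay at 3.75 RPKM or less, below all 6 DKI libraries, the other being WT day 6 replicate 2 at 15.7.

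*Tbxas1* (chr6:38864159-39084590), thromboxane A synthase, was the most abundant terminal prostanoid synthase of the 3 in every library. It was at 10.7, 27.7 and 35.5 RPKM in WT and 10.8, 24.0 and 30.4 in DKI monocytes. On day 3 it was at 82.6, 56.2 and 83.4 in WT and 87.1, 101 and 150 in DKI MDCs, rises of 1.68 (SE 0.42, adjusted p = 0.0155) and 2.40 (SE 0.40, adjusted p = 0.00683). Without WT replicate 3 of day 3 the WT rise lost its call (adjusted p = 0.0573).

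On day 6 *Tbxas1* was at 70.0, 71.0 and 55.8 RPKM in WT and 149, 103 and 99.1 in DKI MDCs. The DKI libraries were above the WT libraries on both days with no overlap, but the difference did not pass the test, at 0.58 on day 3 (SE 0.27, adjusted p = 0.229) and 0.81 on day 6 (SE 0.22, adjusted p = 0.0697). Of all genes tested, 36.3% had ranges that did not overlap on day 3 and 37.2% on day 6. Among the members tested this held for 5 of 9 on day 3 (*Ptgs2*, *Hpgds* and *Tbxas1* higher in DKI, *Alox15* and *Lta4h* lower) and for 3 of 8 on day 6 (*Tbxas1* higher, *Alox15* and *Lta4h* lower). Platelets carry thromboxane synthase, and on day 0 the sum of 8 megakaryocyte and platelet genes was lowest in replicate 1 of each genotype, at 35.5 in WT and 57.6 in DKI, and highest in replicate 3, at 212 and 157. Of these 8 genes, 1 (*Gp1bb*) put the 6 libraries in the order of *Tbxas1*, as did *Ctsg*, *Cd79b* and *Pecam1* of 3 other marker lists, and the part of these cells was not tested.

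*Ptges* (chr2:30889471-30931020), the inducible prostaglandin E synthase, stayed below the 2 RPKM limit in every group mean and entered no main test. Monocytes held 1.29, 0.557 and 0.783 RPKM in WT and 1.43, 0.540 and 0.752 in DKI. On day 3 the WT libraries were at 0.132, 0.291 and 0.230 and the DKI libraries at 1.46, 0.905 and 0.625. On day 6 they were at 0.243, 0.600 and 0.181 and at 0.757, 0.864 and 1.02. The genotypes did not overlap on either day, the WT libraries having less. Where genes of every level were tested, *Ptges* fell in WT cells from day 0 to day 3, by 0.61 (SE 0.15, adjusted p = 0.0276), while the differences between the genotypes had adjusted p of 0.0895 on day 3 and 0.109 on day 6.

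In the 5-lipoxygenase branch, no gene was called between the genotypes in the main test on either day. *Alox5* (chr6:116410071-116461178) was at 4.81, 7.02 and 4.04 RPKM in WT and 3.93, 6.07 and 4.14 in DKI monocytes. It reached 69.6, 74.5 and 53.1 in WT MDCs on day 3, a rise of 3.42 (SE 0.22, adjusted p = 9.71e-05). The DKI libraries of day 3 were at 11.3, 66.0 and 48.3, a rise of 2.61 (SE 0.61, adjusted p = 0.0189). That call was lost when DKI day 0 replicate 1, 2 or 3 or DKI day 3 replicate 3 was left out, with adjusted p between 0.0504 and 0.0599.

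On day 6 *Alox5* was at 71.5, 130 and 54.7 RPKM in WT and 18.4, 109 and 28.4 in DKI MDCs. DKI was lower in 3 of 3 numbered pairs on both days, but the groups overlapped and the differences of -0.94 and -1.03 were not called (SE 0.62 and 0.67, adjusted p = 0.378 and 0.354). On day 3 the size rested on replicate 1, with a difference of -2.52 in the pair of the earlier year and -0.15 on average in the others. On day 6 the values were -1.90 and -0.59. DKI replicate 1 also had the lowest summed RPKM of 6 dendritic cell genes on day 3, 55.3 against 358 and 232 in the other DKI libraries and between 1069 and 1150 in WT. Whether the dendritic cell genes have a part in the *Alox5* level was not tested.

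*Alox5ap* (chr5:149265004-149288153) was the most abundant of the 10 genes on day 0. Monocytes held 444, 479 and 483 RPKM in WT and 453, 445 and 495 in DKI. On day 3 the levels were 471, 239 and 408 in WT and 204, 331 and 423 in DKI MDCs, and on day 6 they were 386, 389 and 222 and 197, 463 and 247. The MDC libraries of a group differed by up to 267 RPKM, and no comparison was called. FLAP mRNA was thus already high on day 0, when *Alox5* was low.

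*Lta4h* (chr10:93453396-93484896), whose enzyme makes leukotriene B4, was at 83.8, 108 and 115.2 RPKM in WT and 89.0, 95.9 and 109 in DKI monocytes. On day 3 it was at 218, 114.2 and 165.7 in WT and 46.3, 79.3 and 81.8 in DKI MDCs. On day 6 it was at 160, 140 and 92.5 in WT and 63.8, 90.5 and 41.1 in DKI MDCs. The ranges of the genotypes did not overlap on day 3 or day 6. From day 0 to day 3, *Lta4h* changed by 0.66 in WT (SE 0.26, limma adjusted p = 0.0735), where the libraries of the days overlapped. In DKI cells it changed by -0.54 (SE 0.26, adjusted p = 0.144), with each day 3 library below those of day 0. Neither change from day 0 was called. The difference between the genotypes was -1.25 on day 3 (SE 0.33, adjusted p = 0.0711) and -1.03 on day 6 (SE 0.34, adjusted p = 0.109). Neither was called in the main test. With all 18 libraries in 1 fit both were, with adjusted p of 0.0147 and 0.0334, in ranges of 0.0147 to 0.203 and 0.0334 to 0.392 over 13 alternatives each. The interaction of genotype and day was -1.19 between days 0 and 3 (unadjusted p = 0.0100 in limma, adjusted p = 0.142).

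*Ltc4s* (chr11:50236461-50238532), whose enzyme makes leukotriene C4, had the largest rise of the 10. On day 0 all 6 libraries were between 0.0809 and 0.281 RPKM, near the 0.1 RPKM that 3 reads give this short gene at the lowest estimated depth. On day 3 it was at 19.4, 46.6 and 28.2 in WT and 2.68, 22.0 and 13.7 in DKI MDCs, rises of 4.71 (SE 0.31, adjusted p = 9.79e-05) and 3.21 (SE 0.64, adjusted p = 0.0114) on the log2(RPKM + 1) scale. On day 6 it was at 48.2, 72.5 and 49.9 in WT and 16.2, 80.2 and 64.6 in DKI MDCs.

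The genotypes overlapped on both days for *Ltc4s*, with differences of -1.51 (SE 0.69, adjusted p = 0.229) and -0.33 (SE 0.58, adjusted p = 0.729). On day 3 the difference was -2.47 in the pair of the earlier year and -1.02 on average in the others, and without DKI replicate 1 it was -0.73 (limma, adjusted p = 0.308). On day 6 the values of the pairs were -1.51 and 0.26. In WT, the 3 libraries of day 6 were all above those of day 3, by 0.90 (SE 0.33), and the unadjusted p of 0.0306 did not survive adjustment over all genes (0.640). Since *Lta4h* and *Ltc4s* use the same leukotriene A4, their ratio was followed. *Lta4h* was between 385 and 735 times *Ltc4s* in RPKM in 4 libraries of day 0, while *Ltc4s* was below the level of 3 reads in replicate 1 of each genotype. The ratio was between 2.45 and 17.3 times on day 3 and between 0.636 and 3.93 times on day 6. *Ltc4s* was the higher of the pair in 1 library of 18, DKI replicate 3 of day 6.

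*Alox15* (chr11:70344147-70390538) had the other genotype call. On day 6 the WT libraries were at 28.1, 22.2 and 22.2 RPKM and the DKI libraries at 5.87, 9.07 and 4.75, so that the groups were far apart. The difference was -1.77 (SE 0.23, adjusted p = 0.0162), a 3.40-fold difference, and DKI was lower in 3 of 3 numbered pairs, with log2 differences of -2.08 in the pair of the earlier year and -1.61 on average in the others. The call was lost without WT replicate 1 (adjusted p = 0.0713), WT replicate 3 (0.0623) or DKI replicate 3 (0.0581). It was also lost in the libraries of the later year alone (0.147), where each group has 2 samples, and 9 of 13 alternatives kept it.

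On day 3 *Alox15* was at 19.0, 15.6 and 17.03 RPKM in WT MDCs, a rise of 1.44 from day 0 (SE 0.34, adjusted p = 0.0127). The DKI libraries were at 1.94, 2.25 and 13.3, with replicates 1 and 2 far below and replicate 3 close to WT. They were not called against day 0 (0.17, SE 0.66, adjusted p = 0.855) or against WT (-1.82, SE 0.59, adjusted p = 0.120). Without DKI replicate 3 the genotype difference was called, at -2.55 (adjusted p = 0.0108), in a range of 0.0108 to 0.349 over 13 alternatives. The interaction of genotype and day between days 0 and 3 was -1.27 (SE 0.82, adjusted p = 0.518), so that a different response of the genotypes was not shown.

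On day 0 *Alox15* followed eosinophil genes. It was at 3.22, 10.3 and 5.34 RPKM in WT and 2.30, 6.81 and 2.71 in DKI monocytes, and the eosinophil peroxidase gene *Epx* was at 11.2, 25.9 and 16.6 and at 7.32, 18.6 and 7.84. Of 8 eosinophil markers, 4 (*Prg2*, *Prg3*, *Epx* and *Ear6*) put the 6 libraries in the same order as *Alox15*, and the summed RPKM of all 8 was between 150 and 597. On day 6 that sum was at 34.7, 20.1 and 25.6 in WT and 55.8, 14.3 and 10.9 in DKI MDCs, with DKI replicates 2 and 3 below and DKI replicate 1 above all WT libraries. The sums of 3 of 11 marker lists did not overlap on day 6: those of the dendritic cell, classical monocyte and B and plasma cell genes. That of 6 dendritic cell genes was between 1042 and 1583 in WT and between 180 and 447 in DKI MDCs. Each of the 6 genes was lower in DKI without overlap, while 37.2% of all genes tested did not overlap. The sum of 7 classical monocyte genes was between 648 and 1188 in WT and between 1426 and 1804 in DKI MDCs. Only 1 of the 7, *Itgam*, a gene of myeloid cells in general, did not overlap, and without it the sums overlapped. That of 6 B and plasma cell genes was between 0.673 and 1.18 and between 1.80 and 4.59, and overlapped without *Cd79b*. The macrophage sums overlapped on day 6, but without *C1qa*, the most abundant gene, they were between 371 and 978 in WT and between 1096 and 1958 in DKI MDCs. The part of these cells in the *Alox15* result was not tested. The genes most like *Alox15* over the 18 libraries were *Tkfc* (0.897), *Cgnl1* (0.892) and *Sesn3* (0.891), given as a description.

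**Figure D4:**
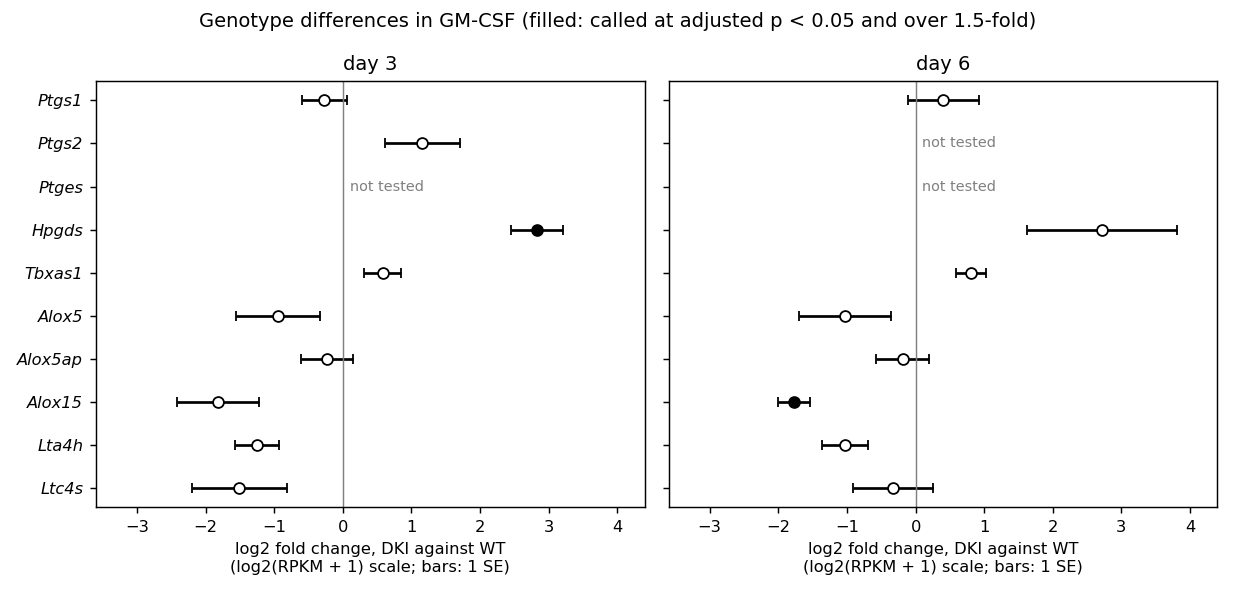
Log2 fold change between DKI and WT MDCs on days 3 and 6 for the members that were tested (points; bars are 1 SE; filled where called). *Hpgds* on day 3 (2.83) and *Alox15* on day 6 (-1.77) were called; *Tbxas1* was on the side of DKI on both days, and *Alox5*, *Alox15* and *Lta4h* on the side of WT.

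Within the numbered pairs, 7 of the 9 members tested on day 3 had all 3 pairs on one side, as did 57.4% of all genes tested, and 5 of 8 on day 6, as did 63.7% of all genes. With the members too low for the test included, *Ptgs2*, *Ptges*, *Hpgds* and *Tbxas1* were higher in DKI MDCs in 3 of 3 pairs on day 3 and again on day 6. *Alox5*, *Alox15* and *Lta4h* were lower in 3 of 3 pairs on both days. *Ptgs1* was mixed, *Alox5ap* was higher in 2 of 3 pairs on each day, and *Ltc4s* was lower in 3 of 3 pairs on day 3 and in 1 of 3 on day 6. Only *Hpgds* on day 3 and *Alox15* on day 6 passed the test, and the difference between the branches was not tested. In the scalings by median and by quantiles, each of these genes that was tested kept its direction on both days.

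The other genes of the pathway were read from a list of 68 in the table. In WT cells, 21 of 39 tested were called between days 0 and 3 (14 higher, 7 lower), beside 43.1% of all genes tested. In DKI cells, 21 of 41 were called (15 higher, 6 lower), beside 34.2%. Among the phospholipases, *Pla2g7*, which hydrolyses platelet-activating factor, rose from 55.0, 46.1 and 26.3 RPKM to 180, 274 and 432 in WT and from 59.7, 30.3 and 34.0 to 847, 516 and 843 in DKI cells. *Hpgd*, which inactivates prostaglandins, fell in both genotypes, with log2 fold changes of -4.63 in WT (SE 0.32, adjusted p = 0.000118) and -4.22 in DKI cells (SE 0.38, adjusted p = 0.00113), from between 14.6 and 43.3 RPKM to 0.205 or less. *Dpep2*, a dipeptidase that turns leukotriene D4 into E4, had the largest rise in WT, by 4.63 (SE 0.36, adjusted p = 0.000188), from 20.2, 15.8 and 7.03 RPKM to 359, 290 and 413. *Cbr1*, a carbonyl reductase that acts on prostaglandins, rose in both genotypes and was higher in DKI MDCs on day 3, at 20.3, 17.04 and 16.7 RPKM against 8.50, 7.60 and 9.69 (0.99, SE 0.15, adjusted p = 0.0180).

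Of these 68 genes, 3 of 38 tested were called between the genotypes on day 3 and 2 of 39 on day 6, all higher in DKI MDCs, beside 7.42% and 7.54% of all genes, so that the list stood near the background. Beside *Cbr1*, the day 3 calls were *Pla2g4a*, the cytosolic phospholipase A2 that frees arachidonic acid, and the chemerin and resolvin receptor gene *Cmklr1*. *Pla2g4a* was at 23.3, 34.2 and 32.0 RPKM in DKI against 16.1, 10.2 and 14.4 in WT MDCs (1.09, SE 0.22, adjusted p = 0.0401), and with the replicate block it was not called (adjusted p = 0.0859). *Cmklr1* was at 182, 108 and 106.5 against 39.4, 41.2 and 64.7 (1.42, SE 0.30, adjusted p = 0.0406, and 0.0807 with the replicate block). Over both days, *Prxl2b* and *Akr1c18* had the largest difference in each direction, and neither passed. *Prxl2b*, a prostamide and prostaglandin F synthase, was at 67.6, 18.3 and 32.7 RPKM in DKI against 7.84, 2.47 and 8.0 in WT MDCs on day 3 (2.45, SE 0.56, adjusted p = 0.0512, and 0.0214 with the replicate block). *Akr1c18*, a hydroxysteroid dehydrogenase of the aldo-keto reductase family, was at 0.227, 0.722 and 0.296 against 1.63, 8.29 and 7.89 on day 6 (-2.10, SE 0.51, adjusted p = 0.0571).

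**Figure D5:**
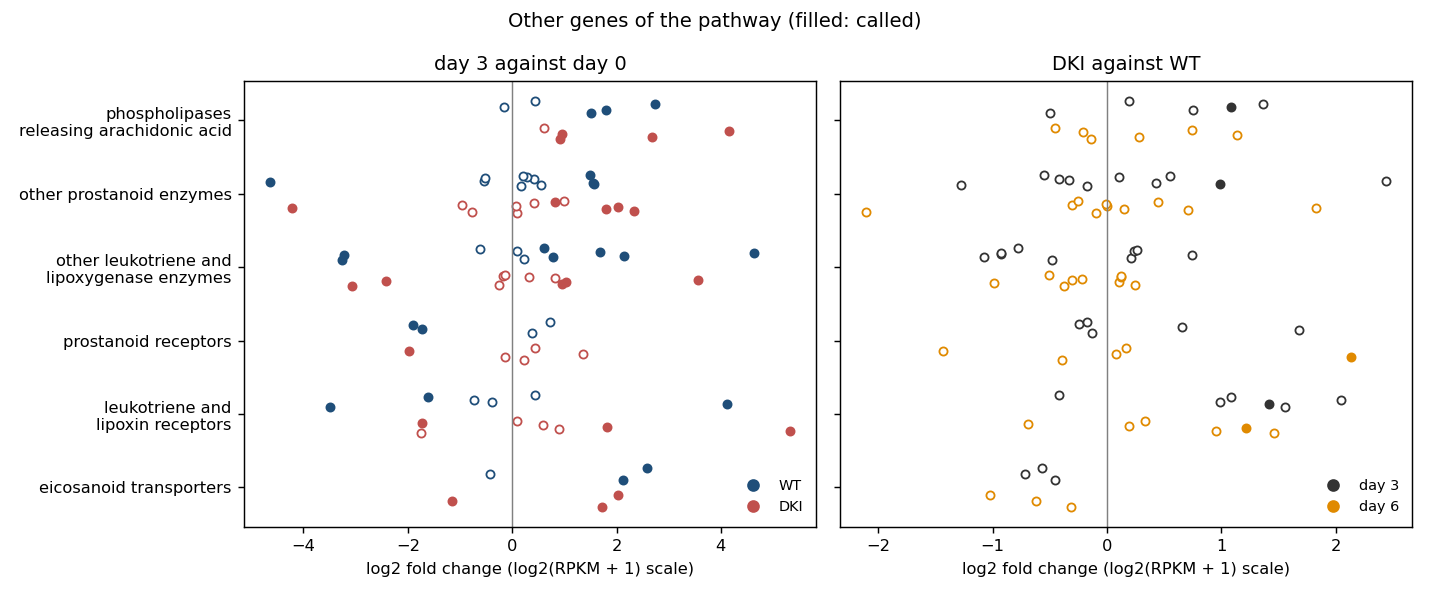
Log2 fold changes of the other pathway genes that were tested, in 6 lists, between day 3 and day 0 (left; WT in blue, DKI in red) and between DKI and WT MDCs (right; day 3 in dark grey, day 6 in orange), with called genes filled. The largest rise in WT was that of *Dpep2* at 4.63 and the largest fall that of *Hpgd* at -4.63.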

How the data were processed

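Libraries of WT and DKI cells were sequenced as single-end reads. Per the study's methods, the authors used Subread for alignment to mm10 and featureCounts for counting per RefSeq gene, and deposited RPKM, which scales reads to gene length and to the mapped reads of the library; versions, strand setting and treatment of reads shared by several genes are not given in the sources used here. RPKM holds no read totals: from the smallest values of 1339 short receptor genes, depth was put at 29.5 to 43.2 M reads per library, an approximate figure, since only 56.4% of 165 other low values were whole reads within 0.05. Precision therefore rests on the 3 libraries per group.

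Groups and replicate numbers were taken from the labels. With limma 3.58.1 in R 4.3.3, log2(RPKM + 1) was fitted per comparison on its own groups with a trended variance, over genes with a mean above 2 RPKM in at least 1 group; a call needed a fold over 1.5 and a p under 0.05 after adjustment over all genes by Benjamini-Hochberg. The fit was tested on simulated data. Alternatives were a pseudocount of 0.1, no filter, median centring, quantile normalization, all 18 libraries in 1 fit, the replicate number as a block, and each library left out; the pair block for the interactions and the libraries of the later year alone were added after the data were seen. Same-numbered libraries of the genotypes deviated together (correlations 0.686 to 0.865 on day 0, 0.163 to 0.369 on day 3 and 0.338 to 0.413 on day 6), as did days 3 and 6 (0.125 to 0.743), but not days 0 and 3 (-0.208 to 0.18), so blocked values are given where they change a call. A ratio of 2 genes was taken only where the gene divided by was at or above the level of 3 reads. The members and gene lists were chosen with earlier results of these data known. Named are all members, other pathway genes called between the genotypes on day 3 or 6 or with the largest change in each direction, marker genes as needed, and the 3 genes most correlated with each member called; *Pla2g7*, *Ptger4*, *Ccrl2* and *Alox12* were added after their values were seen. *Cysltr1* and *Oxer1* were not analysed here.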

Additional observations from a re-analysis of the deposited data

Results flagged for a closer look

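*Hpgds* met the rule for a difference in response between the genotypes. Its change from day 0 to day 3 was larger in DKI than in WT cells by 2.85 on the log2(RPKM + 1) scale, which limma called when each same-numbered pair of a day was a block (SE 0.30, adjusted p = 0.00503; 1040 genes called) and not with unpaired libraries (adjusted p = 0.208; 297 genes called). The rise was 3.11 in DKI and 0.25 in WT cells. Groups of 3 are too small for the test of single libraries that stand apart.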

How the results depend on the processing

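No called member reversed. Of 502 member results refitted on all or on the later-year libraries, 484 kept their direction and their side of the threshold, as did 486 of 573 with 1 library left out; the cause of each change was not tested. Members called on day 3 between the genotypes numbered 2 with all 18 libraries in 1 fit (*Lta4h* and *Alox15* in place of *Hpgds*). On day 6 they numbered 2 under quantile normalization (*Tbxas1* added), with all 18 libraries (*Lta4h* added) and with the replicate block (*Hpgds* added), and 0 in the libraries of the later year. With 1 library left out they ranged from 0 to 2 on both days. The interaction from day 0 to 3 called 1 with the pair block. The replicate block changed no other member call. Signs turned only in uncalled differences. With a pseudocount of 0.1, *Hpgds* was at 0.058 between the genotypes on day 0, -0.24 in WT from day 3 to 6 and 0.26 in that interaction; under quantile normalization the last were -0.017 and 0.089, and *Alox5ap* was at 0.018 in DKI from day 3 to 6. In the libraries of the later year, *Alox5ap* was at 0.26 on day 3 and 0.20 on day 6, *Ptgs1* at -0.11 and *Ltc4s* at 0.26 on day 6. Leaving out 1 library at a time turned the following. Between the genotypes on day 0, the ranges were *Ptgs2* -0.14 to 0.20, *Hpgds* -0.72 to 0.81, *Tbxas1* -0.63 to 0.28, *Alox5* -0.29 to 0.060, *Alox5ap* -0.061 to 0.016, *Lta4h* -0.19 to 0.036. On day 3, the ranges were *Ptgs1* -0.52 to 0.036, *Alox5ap* -0.52 to 0.065. On day 6, the ranges were *Ptgs1* -0.13 to 0.85, *Alox5ap* -0.54 to 0.071, *Ltc4s* -0.76 to 0.36. In WT from day 0 to 3, the range was *Hpgds* -0.27 to 1.09. In WT from day 3 to 6, the ranges were *Ptgs1* -0.58 to 0.40, *Hpgds* -1.01 to 0.86, *Alox5* -0.056 to 0.56, *Alox5ap* -0.44 to 0.11. In DKI from day 0 to 3, the range was *Alox15* -0.57 to 0.58. In DKI from day 3 to 6, the ranges were *Hpgds* -0.61 to 0.71, *Tbxas1* -0.12 to 0.29, *Alox5* -0.53 to 0.72, *Alox5ap* -0.47 to 0.14, *Lta4h* -0.38 to 0.18. In the interaction from day 0 to 3, the ranges were *Ptgs1* -0.26 to 0.48, *Alox5ap* -0.50 to 0.079. In the interaction from day 3 to 6, the ranges were *Hpgds* -0.82 to 1.04, *Alox5* -0.83 to 0.43, *Alox5ap* -0.32 to 0.33, *Alox15* -0.35 to 0.79, *Lta4h* -0.049 to 0.51. Over all genes, 723 on day 3 and 742 on day 6 were called between the genotypes, against 358 and 187 without the filter, 1359 and 1573 with all 18 libraries, and 369 and 38 in the libraries of the later year; with 1 library left out they ranged from 197 to 715 and from 90 to 984, moving over 1.5 times without any library of day 3 but DKI replicate 1 and without any of day 6 but the replicates 2, and DKI cells from day 0 to 3 had 1976 instead of 3394 without DKI day 0 replicate 2; the 297 genes of the interaction from day 0 to 3 ranged from 125 to 336, moving over 1.5 times without any day 0 library but WT replicate 1; with all 18, day 0 had 6 and WT from day 3 to 6 had 16. The 268 higher and 474 lower genes of day 6 became 323 and 285 under median centring and 342 and 310 under quantile normalization, where the median log2 difference of all genes moved from -0.17 to -0.02 and -0.03. *Ptges* everywhere, *Ltc4s* on day 0 and *Ptgs2* on day 6 were too low for the main test.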

Other observations

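Between days 0 and 3, 2 of 4 prostanoid receptor genes tested were called in WT and 1 of 5 in DKI cells, 3 of 6 and 3 of 7 leukotriene and lipoxin receptor genes, and 2 of 3 and 3 of 3 transporter genes, beside 43.1% and 34.2% of all genes. *Cmklr1*, a receptor for chemerin and resolvin E1, had the largest rise among the other pathway genes in DKI cells, by 5.33 (SE 0.24, adjusted p = 0.000292), from 2.55, 2.18 and 1.90 RPKM on day 0 to 182, 108 and 106.5 on day 3. *Ptger4*, the EP4 receptor for prostaglandin E2, fell in both genotypes, with log2 fold changes of -1.90 in WT (SE 0.38, adjusted p = 0.00666) and -1.97 in DKI cells (SE 0.47, adjusted p = 0.0195). *Ccrl2*, a chemerin-binding receptor, fell in WT cells with a log2 fold change of -3.49 (SE 0.31, adjusted p = 0.000303), from 32.6, 31.6 and 69.7 RPKM to 3.20, 2.65 and 2.59. In DKI cells it was at 37.0, 17.9 and 73.3 RPKM on day 0 and 34.6, 4.02 and 6.82 on day 3. The difference of -1.75 was not called (SE 0.80, adjusted p = 0.131). The interaction of genotype with this step called 0 of 41 other pathway genes tested, *Ccrl2* among them, so a different response was not shown.

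On day 6, the EP2 receptor gene *Ptger2* was at 6.41, 7.94 and 19.5 RPKM in DKI against 0.842, 3.00 and 1.16 in WT MDCs (2.14, SE 0.46, adjusted p = 0.0447, and 0.0562 with the replicate block). The cysteinyl leukotriene receptor gene *Cysltr2* was at 3.40, 3.04 and 4.41 against 0.825, 1.31 and 0.806 (1.22, SE 0.21, adjusted p = 0.0293, and 0.0516 with the replicate block). Neither call survived the block.

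*Alox12*, the platelet 12-lipoxygenase, was at 3.13, 9.75 and 21.5 RPKM in WT and 5.73, 9.75 and 13.6 in DKI monocytes and at or below 0.629 RPKM in all 12 GM-CSF libraries. On day 0 the platelet integrin gene *Itga2b* was at 6.25, 17.3 and 31.4 RPKM in WT and 9.54, 18.6 and 20.5 in DKI, so that replicate 1 was lowest and replicate 3 highest for both genes in both genotypes.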
